A study of Mus musculus with 6 samples.

Results

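Metallothioneins and zinc transporters were followed in the proximal colon of Mthfd1 gene-trap heterozygotes and of wild-type mice. They were represented by 10 genes with a part in zinc handling, chosen with earlier results of these data known: Mt1, Mt2, Mtf1, Slc39a4, Slc39a5, Slc39a7, Slc39a8, Slc39a14, Slc30a1 and Slc30a5. Every probe set, the group of oligonucleotides that reads 1 transcript on the array, was taken if its annotated symbol was one of these. This gave 13 probe sets for 9 of the genes, out of 20380 probe sets with a single symbol for 12393 genes. Slc39a5 had no probe set under its symbol and was not analysed here. The groups were 3 heterozygous mice (labelled Mthfd1/+) and 3 wild-type mice (labelled wt), 1 array per animal, all 8 weeks old and all fed the AIN-93G control diet for 5 weeks after weaning. The sources used here do not state the zinc status or strain of the mice, or where in Mthfd1 the trap sits. The brightest Mthfd1 probe set averaged 504 ± 48.4 in heterozygous and 890 ± 56.1 in wild-type colon (SD, n = 3 each).

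Metallothioneins are small cysteine-rich proteins that bind zinc and copper and buffer the free zinc of the cell. Their genes are switched on by Mtf1, a zinc-sensing transcription factor that binds metal response elements in the promoters of Mt1, Mt2 and the zinc exporter gene Slc30a1, and the metallothionein genes also respond to glucocorticoids. Transporters of the Slc39 family (ZIP proteins) carry zinc into the cytosol from outside the cell or from organelles, and those of the Slc30 family (ZnT proteins) carry it out of the cytosol. In the intestine, Slc39a4 on the luminal face of the enterocyte is the main route of zinc uptake from the diet.

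The promoters of the 3 genes named above as Mtf1 targets are shown, searched for the metal response element. Among the brightest probe sets of the 9 measured genes of the list, these 3 genes also had the lowest fold changes. The part of Mtf1 in their values was not tested. The sequences are the RefSeq windows of GRCm38.p6, 250 bases before to 50 after each annotated gene start, 5′ to 3′ on the plus strand. Capitals mark each match to the element's core, searched as TGCACNC and TGCGCNC on both strands; a match on the minus strand appears as its reverse complement. The Mt1 window is chr8:94178839-94179138, the Mt2 window chr8:94172368-94172667 and the Slc30a1 window chr1:191906531-191906830.
Mt1: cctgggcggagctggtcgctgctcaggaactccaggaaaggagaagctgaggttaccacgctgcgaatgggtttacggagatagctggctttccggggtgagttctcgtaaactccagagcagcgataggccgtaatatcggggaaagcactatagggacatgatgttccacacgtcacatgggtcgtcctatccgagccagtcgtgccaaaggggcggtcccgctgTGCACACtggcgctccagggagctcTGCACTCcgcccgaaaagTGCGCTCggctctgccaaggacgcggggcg
Mt2: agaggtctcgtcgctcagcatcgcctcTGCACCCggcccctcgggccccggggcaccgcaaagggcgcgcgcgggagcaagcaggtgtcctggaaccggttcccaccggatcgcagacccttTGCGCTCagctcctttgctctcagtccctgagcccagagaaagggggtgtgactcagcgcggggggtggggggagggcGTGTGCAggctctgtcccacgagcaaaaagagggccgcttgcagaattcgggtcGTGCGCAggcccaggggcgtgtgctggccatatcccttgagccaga
Slc30a1: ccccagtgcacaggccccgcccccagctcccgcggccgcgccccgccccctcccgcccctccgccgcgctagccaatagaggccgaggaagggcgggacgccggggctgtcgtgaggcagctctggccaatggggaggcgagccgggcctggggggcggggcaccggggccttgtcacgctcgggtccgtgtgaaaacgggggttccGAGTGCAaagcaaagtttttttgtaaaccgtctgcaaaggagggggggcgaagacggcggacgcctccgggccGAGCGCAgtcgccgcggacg

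The Mt1 window held 3 matches, the Mt2 window 4 and the Slc30a1 window 2, and none overlapped another. Of the Mt1 matches, 1 begins 23 bases before the annotated start and the others at bases 3 and 21 after it, so the count depends on where RefSeq places that start, which may differ from the start used in these cells. Of 32851 promoter windows of the same length, 25.7% held at least 1 match, 7.11% at least 2, 1.97% at least 3 and 0.517% at least 4. The Mt1 and Mt2 starts lie 6471 bases apart on chromosome 8, in the same orientation. Among the other genes with a window, Slc30a5 had 1 match, 1 of the 2 windows each of Slc39a5 and Slc39a8 had 1, and Mtf1 and Slc39a7 had 0. No window was at hand for Slc39a4 and Slc39a14. A match is a run of letters and not a shown binding site, and the sequence beyond these windows was not searched.

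At the bright Mt1 probe set and at Mt2, signal was lower in every heterozygous colon than in any wild-type colon. Mt1, at its bright probe set 1422557_s_at, read 4632.5, 6304.2 and 7202.4 in heterozygous replicates 1, 2 and 3, against 7534.7, 8295.2 and 8422.5 in wild-type replicates 1, 2 and 3. Heterozygous replicate 1 was the lowest of the 6 arrays, and the groups were separated by 332.3 units. The mean was 6046 ± 1304 in heterozygous and 8084 ± 480.1 in wild-type colon (SD, n = 3 each), or 74.8% of wild-type. The log2 fold change, heterozygous over wild-type, of signal + 16 was -0.44 (SE 0.14, 95% interval -0.77 to -0.11). It did not pass over all 13576 tested probe sets (limma adjusted p = 0.728), and the exact permutation p was 0.1, the smallest that 3 against 3 arrays allow.

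Mt2, the partner gene, read 2172.8, 3979.4 and 4534.2 in heterozygous replicates 1 to 3, against 5742, 5419.9 and 5131.3 in wild-type replicates 1 to 3. The groups were again separate, by 597.1 units, and heterozygous replicate 1 was again the lowest array. Mt2 averaged 3562 ± 1235 in heterozygous and 5431 ± 305.5 in wild-type colon (SD, n = 3 each), 65.6% of wild-type. The log2 fold change was -0.67 (SE 0.23, 95% interval -1.19 to -0.15), with a limma adjusted p of 0.750 and an exact permutation p of 0.1. The size of both differences leaned on heterozygous replicate 1: without it, a comparison of 2 with 3 arrays, the log2 fold change was -0.26 for Mt1 and -0.35 for Mt2. The spread was also wider among heterozygous arrays, where the highest value of signal + 16 was 1.55 times the lowest for Mt1 and 2.08 times for Mt2, against 1.12 times for each in wild-type arrays. That difference in spread was not tested.

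A second Mt1 probe set, 1451612_at, was dim and gave overlapping groups. It read 98.6, 184.3 and 153.1 in heterozygous and 221.2, 178 and 121.8 in wild-type replicates 1 to 3 (log2 fold change -0.24, 95% interval -0.82 to 0.35, limma adjusted p = 0.947). Its interval includes 0, and its value was -0.0082 with heterozygous replicate 1 left out and -0.057 with wild-type replicate 1 left out. The bright probe set carries the suffix s, which by the array maker's naming marks probes shared by transcripts of more than 1 gene, so its signal may hold other transcripts of the family. Of the other metallothionein genes, Mt3, best known from brain, was dim at 89.5 to 133.9 in heterozygous and 94.1 to 218.3 in wild-type arrays, and Mt4 was below the filter for dim probe sets.

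**Figure D1:**
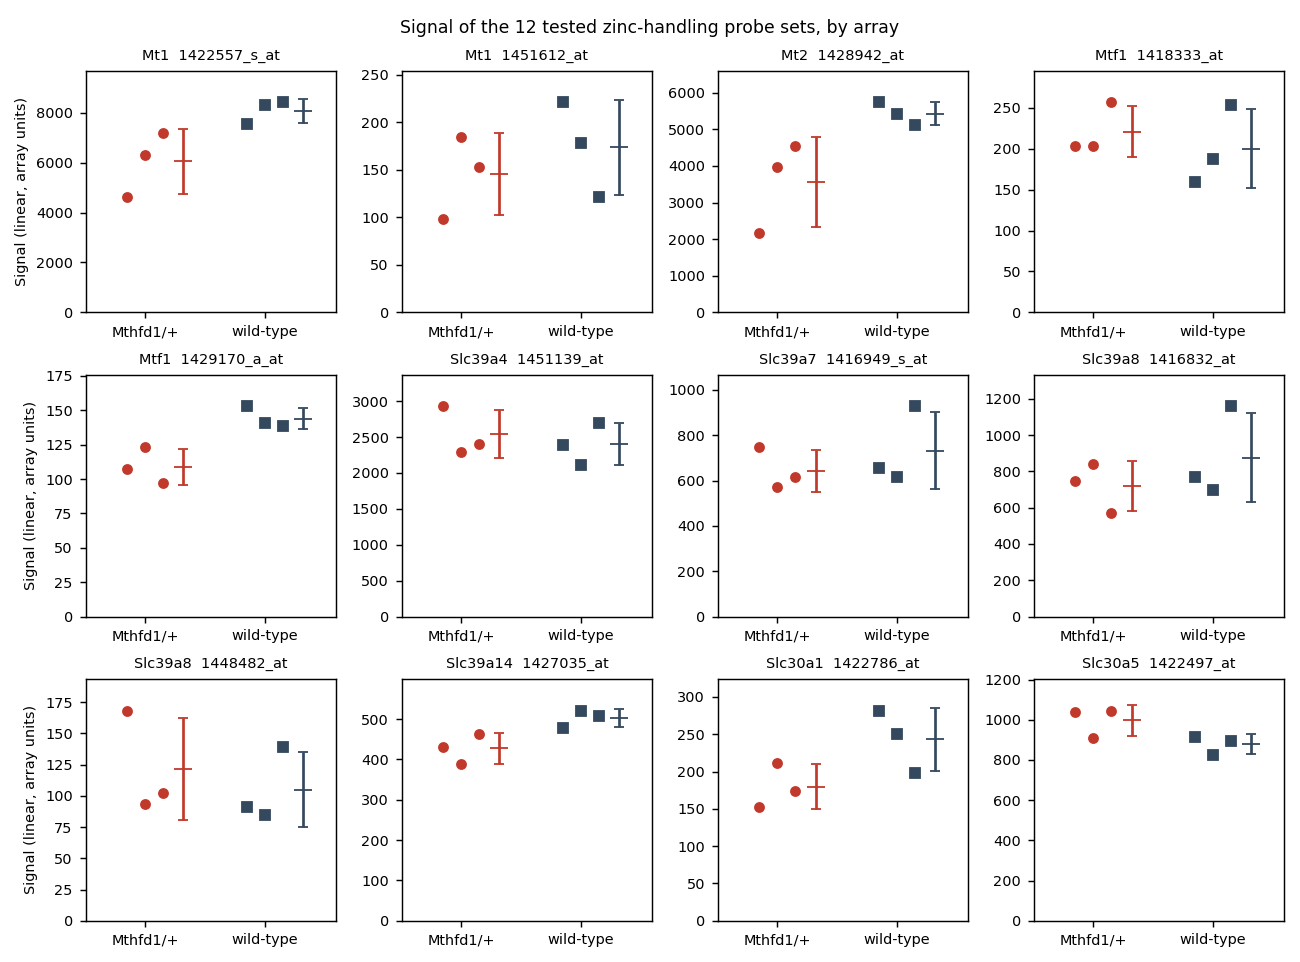
Signal (linear units of the array software, y axis from 0, a scale of its own in each panel) of the 12 tested probe sets, with 3 heterozygous arrays (red circles, left) and 3 wild-type arrays (dark squares, right), each in replicate order, beside the mean and SD. The bright Mt1 probe set, Mt2, Mtf1 1429170_a_at and Slc39a14 have all 3 heterozygous arrays below all 3 wild-type arrays, and the other 8 probe sets overlap.

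Mtf1, the zinc-sensing factor itself, gave no single direction. Its brighter probe set 1418333_at read 202.9, 203 and 257 in heterozygous and 159.4, 188.1 and 253.2 in wild-type replicates 1 to 3 (log2 fold change 0.15, 95% interval -0.28 to 0.57, limma adjusted p = 0.956). The groups overlapped only through wild-type replicate 3, and wild-type replicates 1 and 2 lay below every heterozygous array. Leaving out 1 array gave 0.0077 (wild-type replicate 1), 0.041 (heterozygous replicate 3) or 0.32 (wild-type replicate 3). The other probe set, 1429170_a_at, read 107, 123.1 and 97.1 in heterozygous and 152.9, 140.5 and 138.4 in wild-type replicates 1 to 3, with no overlap (log2 fold change -0.36, 95% interval -0.73 to 0.01, limma adjusted p = 0.880). The suffix a marks probes common to alternative transcripts of 1 gene. The 2 probe sets differ in sign, and the dimmer one lies near the filter for dim probe sets, at a signal of about 93.3, so the level of Mtf1 in heterozygous colon is not settled by these arrays.

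Of the 2 exporters, Slc30a1 was lower on average and Slc30a5 higher, and both overlapped. Slc30a1, which exports zinc across the plasma membrane, read 152.4, 211.8 and 174.2 in heterozygous and 281.7, 249.9 and 198 in wild-type replicates 1 to 3. Heterozygous replicate 2 lay above wild-type replicate 3, and the other 2 heterozygous arrays lay below all wild-type arrays. The means were 179 ± 30.0 and 243 ± 42.3 (SD, n = 3 each), 73.8% of wild-type, with a log2 fold change of -0.41 (SE 0.18, 95% interval -0.81 to -0.003), a limma adjusted p of 0.874 and an exact permutation p of 0.2. Slc30a5, which loads zinc into the secretory pathway, read 1036.8, 909 and 1045.7 in heterozygous and 916.4, 824.9 and 896.7 in wild-type replicates 1 to 3 (log2 fold change 0.18, 95% interval -0.09 to 0.44, limma adjusted p = 0.916). Heterozygous replicate 2 lay within the wild-type range.

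Among the importers, Slc39a4 differed little between the genotypes. This luminal zinc importer read 2928.2, 2296.8 and 2401.4 in heterozygous and 2392, 2109 and 2694 in wild-type replicates 1 to 3. Its mean was 2542 ± 338.4 in heterozygous and 2398 ± 292.6 in wild-type colon (SD, n = 3 each), and the log2 fold change was 0.08 (SE 0.13, limma adjusted p = 0.971). The 95% interval ran from -0.21 to 0.38, which includes differences of either sign. Without heterozygous replicate 1 the value was -0.023, and without wild-type replicate 2 it was -0.0061.

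Slc39a14, which imports zinc, iron and manganese and is induced by interleukin-6 in mouse liver, was the only one of the 4 measured importers of the 10-gene list with groups that did not overlap at its bright probe set. It read 431, 387.4 and 464.2 in heterozygous and 479, 521.1 and 507.8 in wild-type replicates 1 to 3, a gap of 14.8 units (log2 fold change -0.23, SE 0.12, 95% interval -0.51 to 0.05, limma adjusted p = 0.910). Of all tested probe sets, 5.1% were likewise lower without overlap. A second probe set of this gene, 1425649_at, read 25.3 to 48.8 over all arrays and was not tested, being below the filter. Its mean was higher in heterozygous colon, at 44.1, against 36.2 in wild-type colon, with overlapping groups.

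Slc39a8, an importer of zinc and manganese, read 744.2, 839.4 and 570.2 in heterozygous and 769, 700 and 1158.2 in wild-type replicates 1 to 3 at its bright probe set 1416832_at (log2 fold change -0.26, 95% interval -0.73 to 0.21, limma adjusted p = 0.928). Wild-type replicate 3 set most of this difference, and without it the value was -0.048. Its dim probe set 1448482_at had the opposite sign (log2 fold change 0.17, limma adjusted p = 0.966), read 93.7 to 168.2 in heterozygous and 84.5 to 139.1 in wild-type arrays, and turned to -0.058 without heterozygous replicate 1. Slc39a7, which releases zinc from the endoplasmic reticulum and Golgi, read 746.6, 569.6 and 613.8 in heterozygous and 654.3, 613.9 and 927.4 in wild-type replicates 1 to 3 (log2 fold change -0.17, 95% interval -0.57 to 0.23, limma adjusted p = 0.947). Its only probe set, 1416949_s_at, also carries the suffix s, so its signal may hold transcripts of other genes. Wild-type replicate 3 was the highest array for Slc39a7 as for the bright Slc39a8 probe set, and without it the value for Slc39a7 was 0.012.

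Counted together, 12 of the 13 probe sets, standing for all 9 measured genes, were bright enough to be tested. None passed at a limma adjusted p under 0.05, and over all tested probe sets 0 of 13576, or 0%, passed. At an unadjusted limma p under 0.05, 3 of the 12 were lower in heterozygous colon (the bright Mt1 probe set, Mt2 and Slc30a1) and 0 were higher, against 2.56% of all tested probe sets lower and 3.12% higher, 5.69% in all. The count was 1 without wild-type replicate 1, which left Mt1. The groups did not overlap for 4 of the 12, all lower in heterozygous colon, where 5.1% of all tested probe sets were lower without overlap and 5.26% higher, 10.4% in all. Taking the brightest probe set of each gene, 6 of 9 genes were negative and the median log2 fold change was -0.23, against 0.01 over all 8241 tested genes. Mt1 and Mt2 are neighbours with a shared regulator, so a count over them is not a count of independent genes. The listed genes were also chosen with earlier results of these data known, so these counts cannot test whether zinc genes differ more than others.

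**Figure D2:**
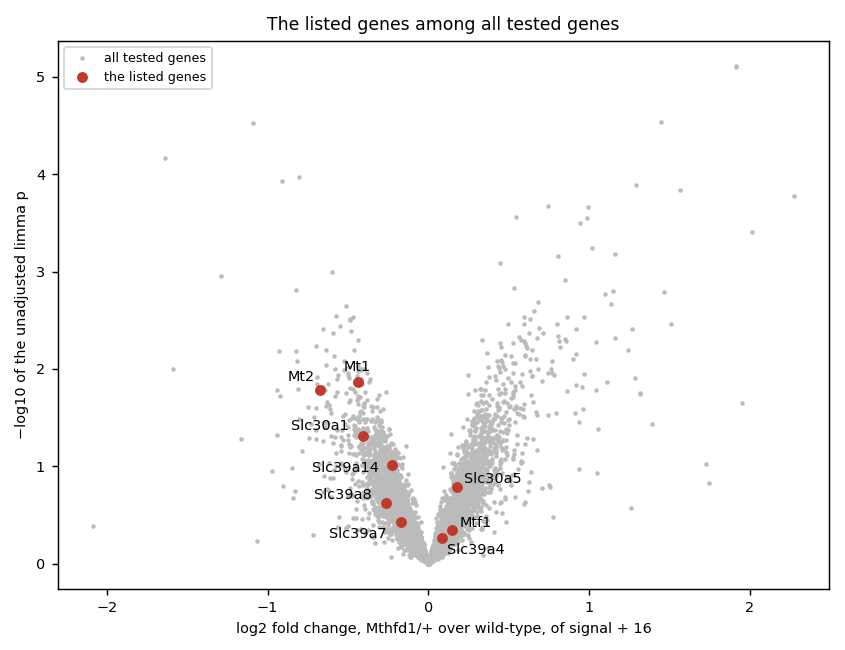
The log2 fold change of signal + 16 (heterozygous over wild-type, x axis) against −log10 of the unadjusted limma p (y axis) for the brightest probe set of each of the 8241 tested genes (grey), with the 9 zinc-handling genes in red. Mt1, Mt2 and Slc30a1 sit on the lower-signal side, Mt2 at -0.67 and Mt1 at -0.44, and many other genes reached smaller p.

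Importers and exporters were set against each other through values centred on each gene's own mean, because signals of different probe sets are not on 1 scale. The mean centred log2 value of the 4 measured importers was 0.06, -0.12 and -0.15 in heterozygous and -0.01, -0.09 and 0.32 in wild-type replicates 1 to 3. For the 2 exporters it was -0.13, -0.01 and -0.04 in heterozygous and 0.19, 0.04 and -0.06 in wild-type replicates 1 to 3. Neither family separated the genotypes. Importers minus exporters came to -0.02 ± 0.17 in heterozygous and 0.02 ± 0.32 in wild-type colon (SD, n = 3 each), a difference of -0.03 that is small beside the spread within each genotype. The exporter mean also joins 2 genes of opposite sign, Slc30a1 and Slc30a5. For Mt1 and Mt2 together the same measure was -0.78, -0.12 and 0.07 in heterozygous and 0.27, 0.30 and 0.27 in wild-type replicates 1 to 3, with no overlap.

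**Figure D3:**
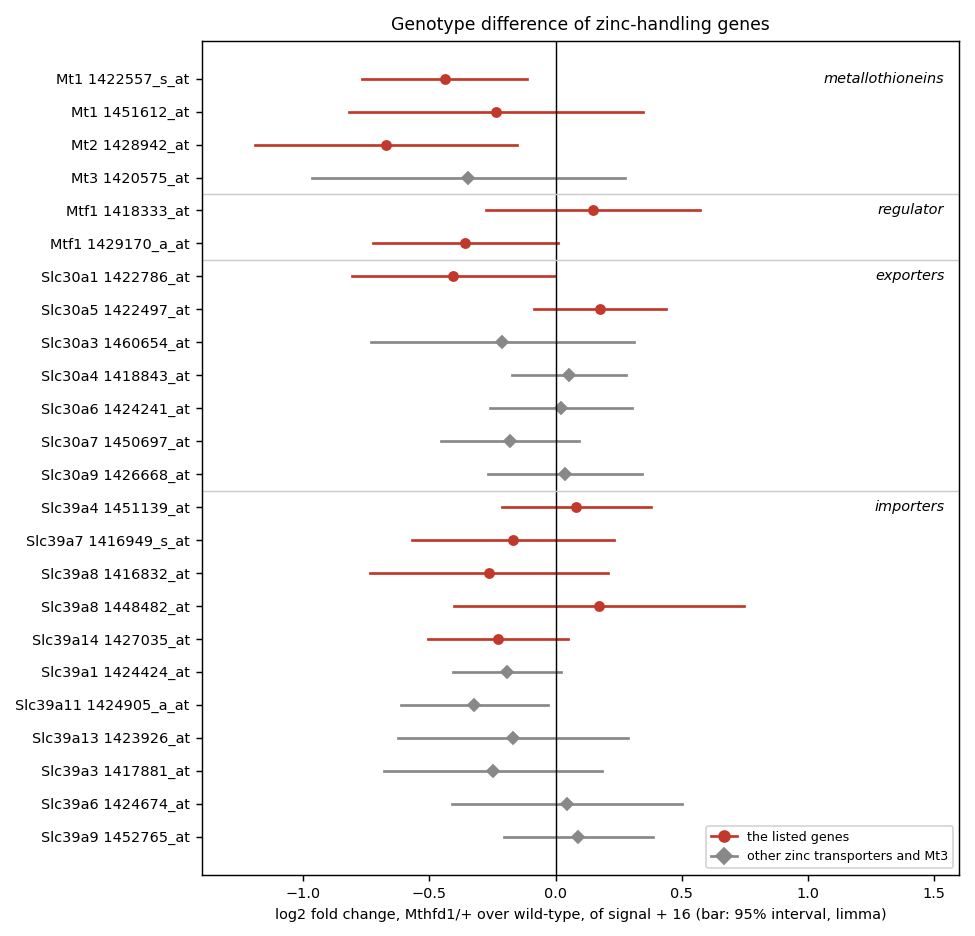
The log2 fold change of signal + 16, heterozygous over wild-type, with its 95% interval from limma, for the 12 tested probe sets (red circles) and for the brightest probe set of 12 further zinc genes (grey diamonds), ordered by role. The intervals of the bright Mt1 probe set, Mt2, Slc30a1 and Slc39a11 lie below 0, and the other 20 include 0.

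The rest of the zinc transporter family was measured by 12 genes. Of the 6 other Slc39 genes tested, 4 were negative and 2 positive, with a median log2 fold change of -0.18 and 1 at an unadjusted limma p under 0.05, which 5.4% of all 8241 tested genes reached. That gene was Slc39a11, a further member of the importer family, which read 913.2, 801.7 and 759.4 in heterozygous and 976.5, 968.6 and 1163.2 in wild-type replicates 1 to 3 (log2 fold change -0.32, SE 0.13, limma adjusted p = 0.817). Its groups did not overlap, and neither did those of Slc39a1, at 1646.5, 1597.8 and 1645.5 in heterozygous and 1873.4, 1824.1 and 1894.3 in wild-type replicates 1 to 3 (log2 fold change -0.19). Thus 2 of these 6 genes were lower without overlap, as were 5.06% of all tested genes. Of the other Slc30 genes, 5 were tested, 3 positive and 2 negative, with a median of 0.02 and 0 at an unadjusted limma p under 0.05. Slc30a2, the exporter known from zinc-rich Paneth cells of the small intestine, was below the filter, at 27.3 to 61.3 in heterozygous and 26.9 to 116.4 in wild-type arrays.

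Genes that share inducers with the metallothioneins were read as well. All 7 genes of a glucocorticoid-responsive list were tested, 6 were positive and 1 negative, the median log2 fold change was 0.34 and 0 reached an unadjusted limma p under 0.05. Over all 8241 tested genes, 4254 were positive. Tsc22d3 and Fkbp5, both classical glucocorticoid targets, had log2 fold changes of 0.55 (limma adjusted p = 0.910) and 0.28 (limma adjusted p = 0.928), each with overlapping groups. The rest of the list also overlapped, with Sgk1 at 0.53, Zbtb16 at 0.48, Dusp1 at 0.34, Klf9 at 0.10 and Per1 at -0.05. The list's mean centred value was -0.07, 0.26 and 0.29 in heterozygous and -0.52, 0.10 and -0.06 in wild-type replicates 1 to 3, with overlapping groups. The part of glucocorticoids in the metallothionein values was not tested.

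Of 8 interleukin-6 and acute-phase genes, 6 were tested, with a median of 0.03, 4 positive and 2 negative. Only Saa3, an acute-phase serum amyloid, reached an unadjusted limma p under 0.05 in that list, at 430, 352.8 and 629.4 in heterozygous and 285.1, 330.1 and 249.2 in wild-type replicates 1 to 3 (log2 fold change 0.65, limma adjusted p = 0.712). Over all 8241 tested genes, 5.4% reached that p, so single genes at that p in short lists say little about the lists. Of the copper-handling genes, 5 were tested, with a median of 0.10, and 0 reached that p. Of the iron and divalent metal genes, 4 were tested, with a median of -0.14 and 1 at that p. The mean centred value over the 5 with a probe set was -0.03, -0.12 and -0.17 in heterozygous and -0.01, 0.11 and 0.20 in wild-type replicates 1 to 3. These means were barely apart, at -0.03 against -0.01 where the groups came closest. They include Hamp, which was below the filter, and each of the 5 genes taken singly had overlapping groups. The 1 gene of this list at an unadjusted limma p under 0.05 was Tfrc, the transferrin receptor, at 1377.5, 1816.9 and 1884.3 in heterozygous and 3833.5, 3820.7 and 1766.1 in wild-type replicates 1 to 3 (log2 fold change -0.81, limma adjusted p = 0.750). Wild-type replicate 3 lay within the heterozygous range for Tfrc. Of 3 tested zinc-binding or zinc-sensing genes, among them Crip1, the cysteine-rich intestinal protein, at log2 -0.10, 0 reached that p.

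**Figure D4:**
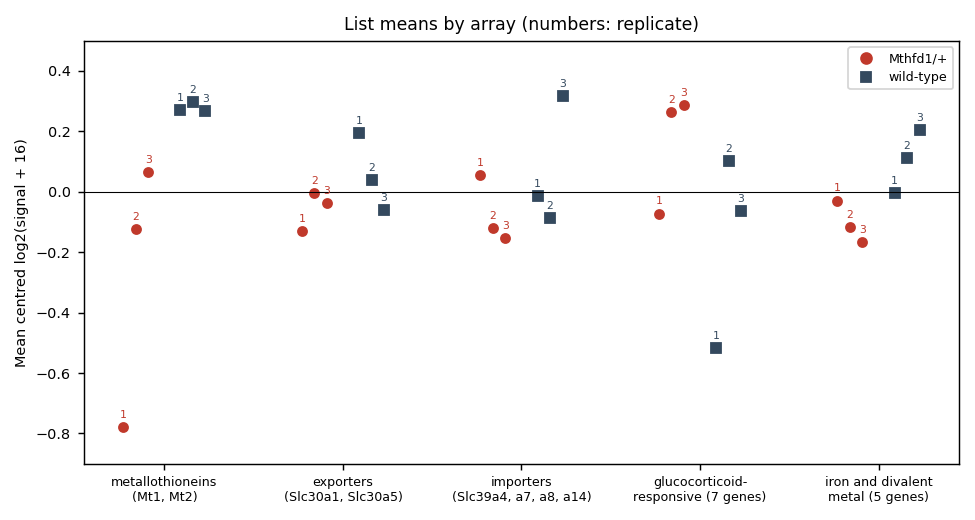
Mean centred log2(signal + 16) by array (y axis) for metallothioneins, exporters, importers, glucocorticoid-responsive genes and iron and divalent metal genes, heterozygous arrays as red circles at the left of each pair and wild-type arrays as dark squares at the right, numbered by replicate. Metallothionein means run from -0.78 to 0.07 in heterozygous and from 0.27 to 0.30 in wild-type arrays, and importers, exporters and glucocorticoid-responsive genes overlap. Iron and divalent metal means are barely apart, from -0.17 to -0.03 in heterozygous and from -0.01 to 0.20 in wild-type arrays, and no single gene of that list separates the genotypes.

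The genes whose signal was most like that of Mt1 over the 6 arrays were Uck2 (Pearson r = 0.997), Slc35a4 (0.991), Mphosph10 (0.988), Nlrx1 (0.987) and Clp1 (0.980), and Mt2 ranked 17 at 0.959. Those most like Slc39a4 were Snhg11 (0.992), Lrpap1 (0.990), Impact (0.983), Scg2 (0.982) and Psrc1 (0.980). These are descriptions over 6 arrays that share 1 scaling, and with so few arrays many genes come close: 58 genes exceeded 0.9 with Mt1 and 118 with Slc39a4.

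The tissue label was read against markers, because zinc genes are expressed unevenly along the gut. All 6 colonocyte markers were tested, with summed signals of 47625 to 55546 in heterozygous and 48999 to 53848 in wild-type arrays and a median log2 fold change of -0.02. Of 9 ileal enterocyte markers 8 had a probe set, and their summed signal varied from 12058 to 28145 in heterozygous and from 9835 to 34646 in wild-type arrays. Single markers varied unevenly. Over all arrays Apoa1 ran from 29.5 to 7711.8 and Fabp6 from 93.5 to 5661.9, while Fabp2, bright on every array, ran from 7713.7 to 13528.8 and Slc10a2 from 170.3 to 313.4. The ileal mean centred value was -0.92, 0.96 and -0.51 in heterozygous and 0.52, 1.31 and -1.36 in wild-type replicates 1 to 3. Heterozygous replicate 1, the lowest array at the bright Mt1 probe set and Mt2, was also low in ileal markers. Wild-type replicate 3, the lowest in ileal markers, was the highest of all arrays at the bright Mt1 probe set (8422.5) and the lowest of the 3 wild-type arrays for Mt2 (5131.3). Of 6 Paneth cell markers 4 had a probe set, with summed signals of 5744 to 9359 in heterozygous and 6159 to 13138 in wild-type arrays. Of 3 T-cell markers all had a probe set, with sums of 269.6 to 695.8 in heterozygous and 233.3 to 291.5 in wild-type arrays, which overlap. Of these 2 were tested, both positive, with a median log2 fold change of 0.79, and Cd3d (log2 fold change 0.92, limma adjusted p = 0.734) reached an unadjusted limma p under 0.05. All 4 macrophage markers were tested, with sums of 2490 to 3304 in heterozygous and 2287 to 2424 in wild-type arrays and a median log2 fold change of 0.18. The macrophage sums did not overlap, and Csf1r had the largest signal of the 4. Cd14 (log2 fold change 0.45, limma adjusted p = 0.821) and Csf1r (log2 fold change 0.27, limma adjusted p = 0.885) were higher in heterozygous colon without overlap, Csf1r by a gap of 1.9 units. Adgre1 (log2 fold change 0.09) and Cd68 (-0.13, the opposite sign) had overlapping groups. Of all tested probe sets, 5.26% were higher without overlap and 5.1% lower. In other marker lists, Cdh5 of endothelium (log2 fold change -0.37) and Cela1 of exocrine pancreas (-0.24) were lower in heterozygous colon without overlap. The endothelial markers Pecam1 (-0.14) and Kdr (0.11) overlapped. The smooth muscle mean centred value was highest in wild-type replicate 3, at 0.43. Cd14 reached an unadjusted limma p under 0.05, as did 5.69% of all tested probe sets. The part of these cell types in the zinc gene values was not tested. In whole tissue, fewer cells of a type and less RNA per cell cannot be told apart.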

How the data were processed

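RNA of 6 proximal colons was amplified, labelled with biotin and hybridised, 1 array per mouse, per the labels' protocols. The authors deposited 1 linear intensity for each probe set on each array. Per the submitters' processing notes the software was GCOS, that of the array maker, with its version not given in the sources used here. Each array's mean without the top and bottom 2% of probe sets was 500, so arrays share 1 scale, and median signals ran from 156.8 to 168.2. The number of arrays limits the precision. Depth has no counterpart here.

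Of 22690 probe sets, 64 controls were left out. Gene symbols came from the platform annotation, and an update by gene number against the RefSeq table of GRCm38.p6 renamed 0; 20380 probe sets had 1 symbol, 691 several and 1555 none. Values entered as log2(signal + 16), which understates fold changes of dim genes. Those whose mean log2 value lay under the 40th percentile were dropped, and 13576 were tested with limma 3.58.1 in R 4.3.3 (variance trend, two-sided, Benjamini-Hochberg adjustment over all of them, threshold 0.05). Single values had an exact two-sided permutation test. The steps were tested on simulated data. Each array is a separate animal by its title. Named genes are every listed gene, those of the wider lists at an unadjusted p under 0.05, a few further list members and cell markers named for their role after their values were seen, and the 5 genes most like Mt1 and Slc39a4. The genes and lists were chosen with earlier results of these data known. Promoter windows came from RefSeq, and 8 of the 10 genes had one; protein sequences were not used here.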

Additional observations from a re-analysis of the deposited data

How the results depend on the processing

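The 12 tested probe sets were refitted under up to 15 alternatives each (normalization, pseudocount, variance model, array weights, replicate block, filter and each array left out), 175 values in all, of which 171 kept their direction and 0 passed at an adjusted p under 0.05. The 4 that turned sign did so with 1 array left out: Slc39a4 ranged from -0.023 (heterozygous replicate 1 left out; -0.0061 with wild-type replicate 2 left out) to 0.17, the dim Slc39a8 probe set from -0.058 (heterozygous replicate 1 left out) to 0.37, and Slc39a7 from -0.28 to 0.012 (wild-type replicate 3 left out). The cause was not tested. The bright Mt1 probe set stayed between -0.58 and -0.26 and Mt2 between -0.88 and -0.35 over 15 alternatives each. With each array left out in turn, member probe sets at an unadjusted limma p under 0.05 numbered 1 to 4, all tested probe sets at that p 439 to 1038, and those past the adjusted threshold 0 to 39, against 3, 772 and 0 with all arrays. The 39 arose when heterozygous replicate 1 was dropped, against 2 for wild-type replicate 3, and the 439 when heterozygous replicate 3 was dropped. The adjusted count was 8 with robust variance and 4 with array weights, and the unadjusted count was 1395 without the filter and 443 at the 60th percentile, where more and fewer probe sets are tested. Importers minus exporters ran from -0.14 to 0.15 over its alternatives, within the spread between replicates. The replicate numbers were not shown to pair the animals: deviations of same-numbered arrays correlated at -0.12, 0.49 and 0.04. With the replicate block, 2 member probe sets rather than 3 had an unadjusted limma p under 0.05 (921 over all), and Slc30a1 was the one lost. Slc30a1 kept an unadjusted limma p under 0.05 in 7 of its 14 alternatives, losing it also with quantile normalization, without the filter and in 4 of the 6 fits with 1 array left out. Dim probe sets carry no background measure in the deposited values.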
